A study of Mus musculus with 6 samples.

Results

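The genes described here are 42 regulators of cell death and targets of the transcription factor p53, taken as a set by their gene symbols and not by a threshold on their values. They comprised BCL2 family genes, caspases and their partners, caspase inhibitors, death receptors and p53 targets in growth arrest, feedback and DNA repair. Every probe whose platform annotation gave 1 of these symbols was taken, which found 106 of 45281 probes and 41 of the 42 genes, among 19057 genes with a symbol. No probe used here carried the symbol Bax, so that gene was not analysed here.

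The cells were LβT2 cells, a mouse line of pituitary gonadotropes, which make luteinizing and follicle-stimulating hormone. The samples were 3 of cells given an siRNA labelled Gas and 3 of cells given a scrambled siRNA, each for 48 h, and the labels give the strain CB6F1/J for all of them. Each sample's total RNA was read on 1 Illumina bead array of the mouse genome. As background, this line was derived from a pituitary tumour of mice carrying the large T antigen of a simian virus under the Lhb promoter. That antigen is known to bind p53. Neither the antigen nor its binding was analysed here in the Gas siRNA or the scrambled siRNA cells. Whether the replicates were separate cultures is not in the labels, so the p-values reflect only how far these samples spread, and that spread could be technical.

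In the mitochondrial pathway of apoptosis, BH3-only proteins sense damage or loss of survival signals and either block the anti-apoptotic BCL2 proteins or activate Bax and Bak, which open the outer mitochondrial membrane. Released cytochrome c then assembles with Apaf1 into the apoptosome, which activates caspase 9 and, through it, the executioner caspases. p53 acts on this pathway by inducing genes such as Bbc3 and Pmaip1, and on growth arrest, repair and its own degradation through other targets. In pituitary cells, cyclic AMP made downstream of Gs alpha is known as a signal for hormone synthesis and cell proliferation.

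Levels are given as normalized log2 intensity, in which a difference of 1 is a doubling, and a log2 change is Gas siRNA minus scrambled siRNA. An array probe was kept for testing if it lay above the background bound, the 95th percentile of estimated background, on at least 3 of the 6 arrays. Between 49.4% and 49.7% of probes passed that bound per array, and it lay between 4.92 and 4.93 on the log2 scale. The brightest Gnas probe, for the gene of Gs alpha, averaged 8.91 with Gas siRNA and 11.81 with scrambled siRNA, a log2 change of -2.91 (limma adjusted p = 2.48e-20), and a second probe fell by 3.00, while 5 dimmer kept Gnas probes did not pass. The gonadotrope markers Cga, Lhb, Gnrhr, Nr5a1, Pitx1 and Egr1 were above the bound on all arrays, while the Fshb probe was above it on 0 of 6. The markers of other pituitary cells and of blood cells on the array (Prl, Pomc, Tshb, Tbx19 and Ptprc) were above it on 0 of 6 arrays, apart from a dim Gh probe. Of the fibroblast collagens, Col1a1 was above it on 0 arrays and Col1a2 on 1 array of each group. The endothelial genes Pecam1 and Cdh5 were above it on all 6 arrays, with log2 changes of 0.01 and -0.23 that did not pass (adjusted p = 0.989 and 0.454). In a bulk sample, a change in the number of cells of a type and a change in RNA per cell cannot be told apart.

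Of the 41 genes with probes, 37 had at least 1 kept probe and 72 of their 106 probes were kept. Pmaip1 (Noxa), the p53 target Perp and the caspase inhibitors Birc3 and Xiap had none, so no comparison is given for them. The highest array count among their probes was 2 of 6, for 1 Pmaip1 probe with scrambled siRNA. Where a gene had several kept probes, the brightest stood for it. Of the 19 such genes, 12 had log2 changes of 1 sign on all kept probes and 7 of both signs.

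The changes of this cell death and p53 set between Gas siRNA and scrambled siRNA cells were small and near in size to those of all genes. On the brightest probe, 0 of the 37 genes changed at a Benjamini-Hochberg adjusted p under 0.05 in limma, against 1.63% of all 11890 genes tested (0.698% higher and 0.934% lower with Gas siRNA). At an unadjusted p under 0.05, 3 of the 37 passed, namely Polk, Xpc and Plk2, all higher with Gas siRNA, against 11.1% of all genes. In 6 of the 37 genes (16.2%) the Gas siRNA and scrambled siRNA arrays were fully apart, against 15.9% of all genes. Of the 6, 3 were higher with Gas siRNA (7.67% of all genes) and 3 were lower (8.23% of all genes). The members' share on this count was thus near that of all genes. The median log2 change of the 37 was 0.03, against -0.00015 for all genes, and the median size of the change was 0.12, against 0.11. Per probe, 1 of 72 passed, a second probe of Trp53inp1, against 1.13% of all 22707 kept probes.

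A change that misses the threshold is not shown to be absent, so the 95% interval of each difference is given as a bound. For 33 of the 37 genes (89.2%, against 73.8% of all genes) the whole interval lay within 1.5-fold in either direction. The exceptions were Bik, Fas, Aen and Polk, whose intervals reached 1.75-fold, 1.67-fold, 1.77-fold and 1.67-fold. The members' intervals were narrower, with a median reach of 0.24 to either side on the log2 scale, against 0.28 for all genes. The median size of the change was alike, as given above. The narrowest intervals were those of the bright probes of Ei24, Cycs, Diablo and Casp2, which reached 0.16, 0.16, 0.17 and 0.17 to either side on the log2 scale.

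**Figure D1:**
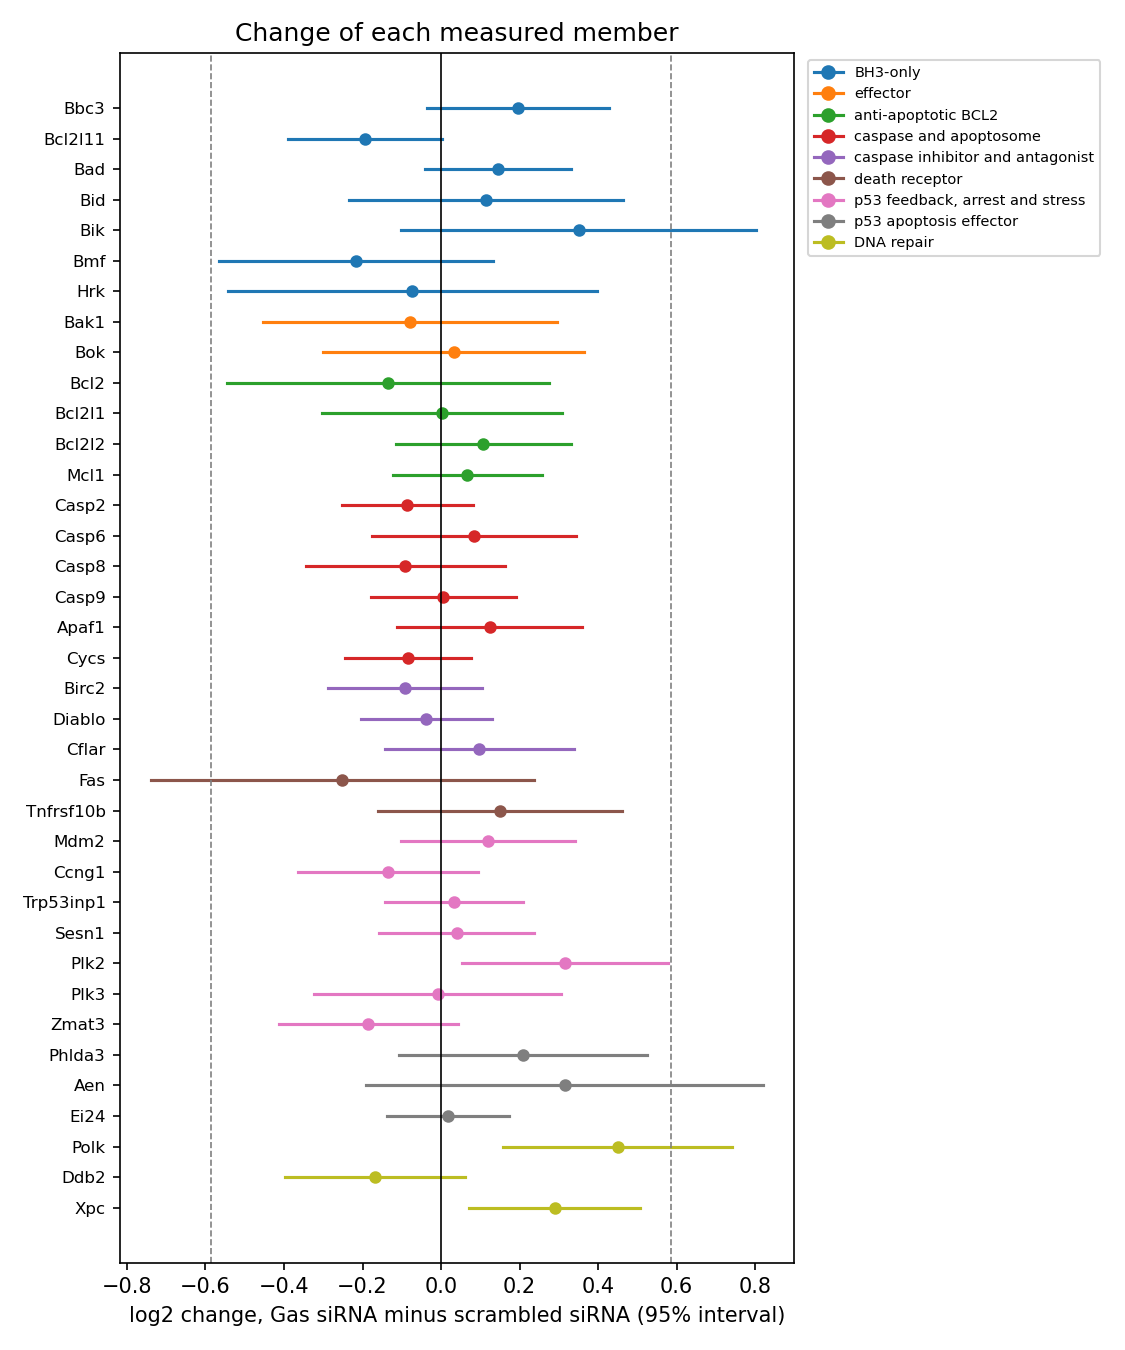
Log2 change of each of the 37 measured genes on its brightest kept probe (horizontal axis, Gas siRNA minus scrambled siRNA), with points for the estimate, bars for the 95% interval from limma and colours for the role of the gene. Dashed lines mark 1.5-fold in either direction. The intervals of 33 genes lie between the dashed lines, and those of Polk, Xpc and Plk2 lie wholly above 0.

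The BH3-only genes encode the sensors that start the mitochondrial pathway. Of the 7 measured, 0 passed, 4 had a positive and 3 a negative log2 change, and the median was 0.12. Bad, whose product is held inactive by phosphorylation, including by protein kinase A, had 10.53, 10.37 and 10.60 on the Gas siRNA arrays, against 10.32, 10.47 and 10.27 on the scrambled siRNA arrays. The groups overlapped, and the log2 change was 0.15 (95% interval -0.04 to 0.33, adjusted p = 0.661).

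Bcl2l11, which encodes Bim, had 9.37, 9.39 and 9.37 on the Gas siRNA arrays, against 9.57, 9.57 and 9.57 on the scrambled siRNA arrays. Every Gas siRNA array lay below every scrambled siRNA array with hardly any spread within a group, but limma moderates so small a spread towards that of other probes of like brightness, and the log2 change of -0.19 (95% interval -0.39 to 0.0016) did not pass (adjusted p = 0.517). Its other kept probes had log2 changes of -0.12 and -0.23, so all 3 were negative, and neither passed (adjusted p = 0.875 and 0.795).

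Bbc3, which encodes the p53-induced protein Puma, had a log2 change of 0.20 on its brightest probe (adjusted p = 0.619), -0.10 on the second (adjusted p = 0.921) and 0.61 on the dimmest (95% interval 0.15 to 1.06, adjusted p = 0.266). On that dimmest probe the values were 6.21, 6.05 and 6.10 with Gas siRNA, against 5.62, 4.99 and 5.93 with scrambled siRNA. The groups did not overlap there, yet the scrambled siRNA arrays were widely spread and close to background. The probes of Bbc3 therefore did not give 1 direction.

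Of the other BH3-only genes, Bid had a log2 change of 0.12 (0.02 on its second probe), Bik of 0.35, Bmf of -0.22 and Hrk of -0.07, with adjusted p from 0.666 for Bik to 0.954 for Hrk. Hrk, a BH3-only gene best known from neurons, was barely above the bound, on 2 of 3 arrays in each group.

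The anti-apoptotic genes encode the proteins that hold the effectors in check. Of 4 measured, 0 passed, and the median log2 change was 0.04. Mcl1, a short-lived member of this class, had 10.17, 10.03 and 10.13 with Gas siRNA, against 9.98, 10.19 and 9.95 with scrambled siRNA. The groups overlapped, and the 95% interval of the log2 change of 0.07 ran from -0.12 to 0.26 (adjusted p = 0.886), a change of at most 1.20-fold at its outer end. Bcl2l1, which encodes Bcl-xL, had a log2 change of 0.0031 (95% interval -0.30 to 0.31), with 0.04 and -0.20 on its other probes. Bcl2l2, which encodes Bcl-w, had a log2 change of 0.11 (95% interval -0.12 to 0.33), with 0.16 and -0.08 on the next brightest probes.

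Bcl2 itself was represented by 9 probes, of which 5 were kept, all dim. Its brightest had 6.67, 6.95 and 6.10 with Gas siRNA, against 6.74, 6.98 and 6.41 with scrambled siRNA, which overlapped. The log2 changes of the 5 were -0.14, -0.36, -0.08, -0.41 and -0.12. All were negative and none passed, with adjusted p from 0.508 to 0.944. Bcl2l2 also had 5 kept probes, and 1 of the 2 dimmest had 5.92, 5.26 and 5.64 with Gas siRNA, against 5.06, 5.17 and 4.85 with scrambled siRNA (log2 change 0.58, adjusted p = 0.334). The other had 5.05, 5.11 and 5.04 with Gas siRNA, against 4.89, 4.80 and 4.50 with scrambled siRNA. It was above the bound on 3 of 3 Gas siRNA and 0 of 3 scrambled siRNA arrays, so it was kept only through the Gas siRNA arrays, and no fold is drawn from it.

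The effectors form pores in the mitochondrial membrane. Bok had 7.73, 7.93 and 7.80 with Gas siRNA, against 7.58, 8.30 and 7.48 with scrambled siRNA. Scrambled siRNA replicate 2 was the highest of the 6, and the log2 change of 0.03 (adjusted p = 0.972) turned to -0.12 without scrambled siRNA replicate 3. Bak1 had a log2 change of -0.08 (95% interval -0.45 to 0.29, adjusted p = 0.937).

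Downstream of the mitochondria, 0 of 6 caspase and apoptosome genes passed, and 5 of the 6 had a log2 change smaller than 0.1. Cycs, which encodes cytochrome c, had 11.51, 11.51 and 11.40 with Gas siRNA, against 11.63, 11.60 and 11.46 with scrambled siRNA. The groups overlapped, and the log2 change was -0.08 (95% interval -0.24 to 0.08, adjusted p = 0.807). Casp2, an initiator caspase, had 10.65, 10.70 and 10.63 with Gas siRNA, against 10.71, 10.77 and 10.75 with scrambled siRNA. All 3 Gas siRNA arrays lay below all scrambled siRNA arrays, by a log2 change of only -0.09 (95% interval -0.25 to 0.08, adjusted p = 0.811). The second probes of Cycs and Casp2 were dim, with log2 changes of -0.22 and -0.19 (adjusted p = 0.807 and 0.864).

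Casp9, the caspase of the apoptosome, had a log2 change of 0.01 (95% interval -0.18 to 0.19), Casp8, the initiator at death receptors, of -0.09 (-0.35 to 0.16) and the executioner Casp6 of 0.08 (-0.18 to 0.34). Their adjusted p ranged from 0.884 to 0.991. Casp6 and Casp8 each had a second kept probe, with log2 changes of 0.09 and -0.06, close to those of the first. Apaf1, the scaffold of the apoptosome and a p53 target, had a log2 change of 0.12 (adjusted p = 0.807), 0.06 on its second probe and -0.08 on its dimmest.

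Among the genes that restrain caspases or relieve that restraint, 0 of 3 passed. Diablo, whose product Smac displaces inhibitors of apoptosis from caspases, had 11.08, 11.18 and 11.01 with Gas siRNA, against 11.08, 11.21 and 11.09 with scrambled siRNA. These overlapped almost wholly (log2 change -0.04, 95% interval -0.20 to 0.13, adjusted p = 0.934). Birc2, a ubiquitin ligase of the inhibitor of apoptosis family, had a log2 change of -0.09 and Cflar, which blocks caspase 8 at death receptors, of 0.10 (adjusted p = 0.829 and 0.868). The 3 dimmer Birc2 probes had log2 changes of -0.04, 0.12 and -0.43, which did not give 1 direction, and none passed (adjusted p from 0.584 to 0.966).

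The death receptor Tnfrsf10b, the mouse receptor for TRAIL and a p53 target, had 7.52, 7.25 and 7.23 with Gas siRNA, against 7.05, 7.19 and 7.30 with scrambled siRNA. The groups overlapped (log2 change 0.15, 95% interval -0.16 to 0.46, adjusted p = 0.825). The Fas probe was above the bound on 1 of 3 Gas siRNA and 2 of 3 scrambled siRNA arrays and had a log2 change of -0.25 (95% interval -0.74 to 0.24, adjusted p = 0.810), so its level was close to background in both groups.

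**Figure D2:**
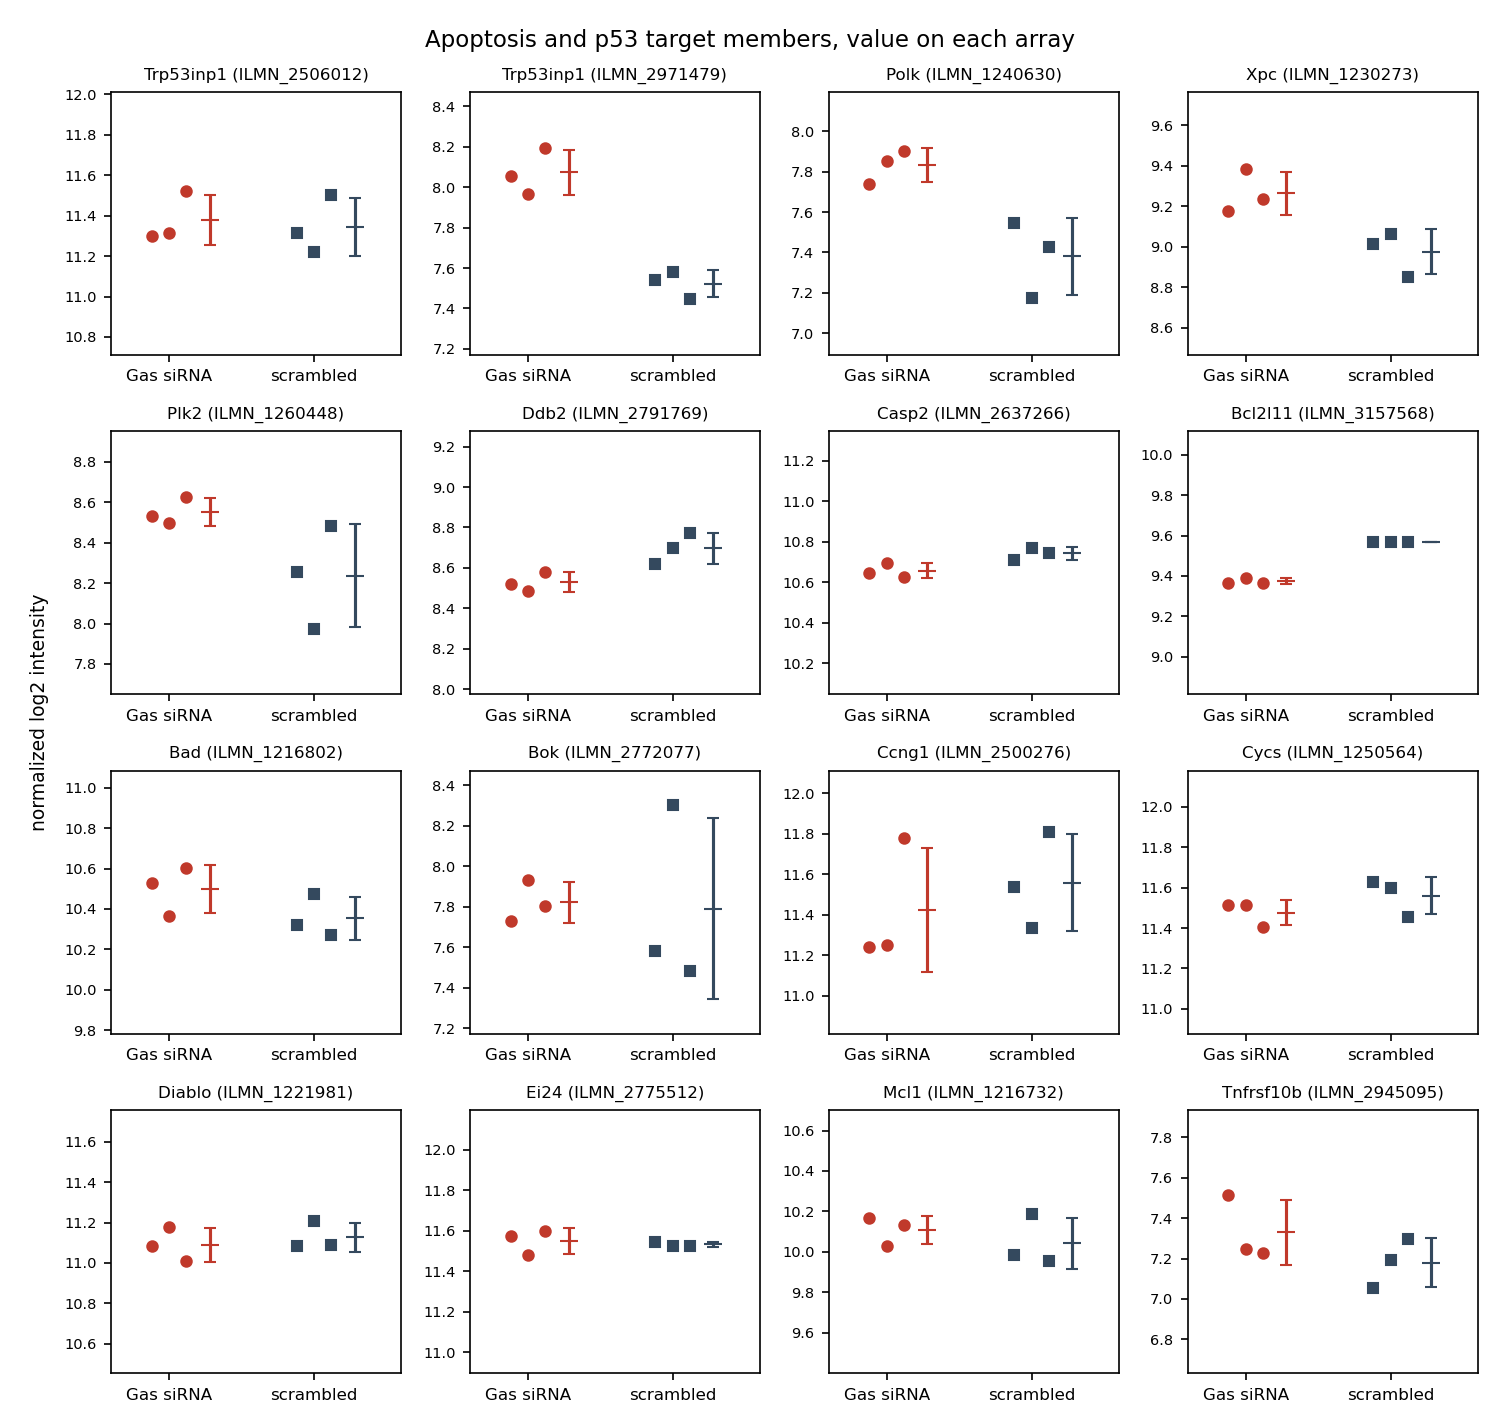
Normalized log2 intensity (vertical axes, each spanning 1.3 log2 units) on the 3 Gas siRNA arrays (circles) and the 3 scrambled siRNA arrays (squares) for 16 probes, with the mean and SD beside the points of each group. The groups are apart for the dimmer Trp53inp1 probe (ILMN_2971479) and, by less, for Polk, Xpc, Plk2, Ddb2, Casp2 and Bcl2l11, while the other panels overlap.

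Trp53inp1, a p53-induced stress protein that promotes cell death and autophagy, gave the 1 call in the set, and its probes disagreed. The dimmer probe (ILMN_2971479) had 8.06, 7.97 and 8.19 with Gas siRNA, against 7.54, 7.58 and 7.45 with scrambled siRNA. All 3 Gas siRNA arrays were above all scrambled siRNA arrays, averaging 8.07 ± 0.11 against 7.52 ± 0.068 (SD, n = 3 each). It rose by 0.55 on the log2 scale (95% interval 0.28 to 0.82, SE 0.133, limma adjusted p = 0.0305). The brighter probe (ILMN_2506012) had 11.30, 11.31 and 11.52 with Gas siRNA, against 11.31, 11.22 and 11.50 with scrambled siRNA, which overlapped (log2 change 0.03, 95% interval -0.14 to 0.21, adjusted p = 0.943).

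The difference between the 2 changes, taken within each array, was 0.52, with p = 0.1 in a two-sided exact permutation test, the smallest p that 3 arrays against 3 allow. The pair was picked because 1 of its probes passed in these same data, which favours a difference, so no conclusion is drawn from this test. The annotation gives the same transcript accession for these probes. The call of the dimmer probe was lost without any 1 of the 6 arrays and without the intensity trend in the variance (adjusted p = 0.239). Leaving out Gas siRNA replicates 1, 2 and 3 gave adjusted p of 0.0944, 0.0620 and 0.173, and leaving out scrambled siRNA replicates 1, 2 and 3 gave 0.0693, 0.0626 and 0.131. The log2 change of the dimmer probe was between 0.49 and 0.60 in these fits, each of which held 1 array fewer. With both probes averaged, the log2 change of Trp53inp1 was 0.29 (adjusted p = 0.190).

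**Figure D3:**
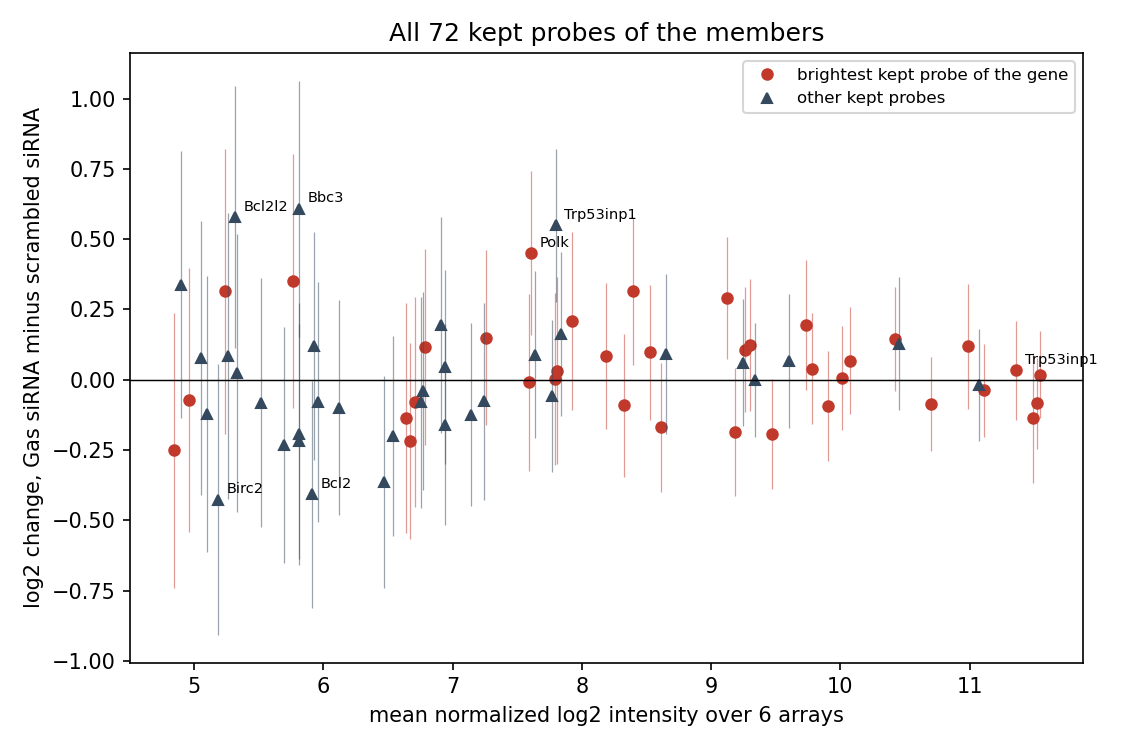
Log2 change (vertical axis, Gas siRNA minus scrambled siRNA) of each of the 72 kept probes against its mean normalized log2 intensity over the 6 arrays (horizontal axis), with circles for the brightest probe of each gene, triangles for its other probes and lines for the 95% interval. The intervals are wider at low intensity, and the 2 probes of Trp53inp1 lie at 0.55 and 0.03.

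The 3 DNA repair genes in the set had the largest median log2 change of any role, 0.29, on 3 genes. Polk, a DNA polymerase that copies across damaged bases, had 7.74, 7.86 and 7.90 with Gas siRNA, against 7.54, 7.17 and 7.43 with scrambled siRNA. Every Gas siRNA array was above every scrambled siRNA array. The log2 change of 0.45 (95% interval 0.16 to 0.74) had an unadjusted p of 0.00366 and did not pass after adjustment (adjusted p = 0.154). It was 0.28 on the deposited values without background correction (adjusted p = 0.144).

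Xpc, a sensor of helix distortion in nucleotide excision repair, had 9.17, 9.38 and 9.24 with Gas siRNA, against 9.02, 9.06 and 8.85 with scrambled siRNA, and did not pass (log2 change 0.29, 95% interval 0.07 to 0.51, adjusted p = 0.271). Ddb2, which works in the same pathway, lay the other way, with 8.52, 8.48 and 8.58 with Gas siRNA, against 8.62, 8.70 and 8.77 with scrambled siRNA (log2 change -0.17, 95% interval -0.40 to 0.06, adjusted p = 0.690). The groups of Xpc and of Ddb2 did not overlap, in opposite directions. The other Ddb2 probes kept had log2 changes of -0.08 and -0.16.

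Among the p53 targets of feedback, growth arrest and stress, 0 of 7 passed on the brightest probe. Plk2, a polo-like kinase gene, had 8.53, 8.50 and 8.63 with Gas siRNA, against 8.25, 7.97 and 8.48 with scrambled siRNA. The groups were just apart, scrambled siRNA replicate 3 reaching nearly the lowest Gas siRNA array, and the log2 change of 0.31 (95% interval 0.05 to 0.58) did not pass (adjusted p = 0.362). Without scrambled siRNA replicate 2, the lowest array, it was 0.18 (adjusted p = 0.741). Ccng1, cyclin G1, had 11.24, 11.25 and 11.78 with Gas siRNA, against 11.54, 11.33 and 11.81 with scrambled siRNA. The groups overlapped and replicate 3 was the highest in each of them (log2 change -0.14, 95% interval -0.37 to 0.09, adjusted p = 0.777). The other Ccng1 probes lay the other way, with log2 changes of 0.07 and 0.09. With 1 array left out, the change of the brightest probe stayed negative. It ran from -0.31 without Gas siRNA replicate 3 to -0.01 without scrambled siRNA replicate 3. Without replicate 3 of both groups it was -0.19 (adjusted p = 0.738). The probes of Ccng1 thus did not give 1 direction, and the size of the change on the brightest depended on the arrays used.

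Mdm2, the ubiquitin ligase that degrades p53 and is itself a p53 target, had 10.81, 11.02 and 11.32 with Gas siRNA, against 10.66, 10.99 and 11.13 with scrambled siRNA. Here too the groups overlapped and replicate 3 was the highest in each (log2 change 0.12, 95% interval -0.10 to 0.34, adjusted p = 0.801), and the other probes had log2 changes of 0.13 and 0.08. The antioxidant stress gene Sesn1 had a log2 change of 0.04 (0.00057 and 0.08 on its other probes), the kinase gene Plk3 of -0.0087 and the RNA-binding protein gene Zmat3 of -0.19, and none passed (adjusted p from 0.641 to 0.992).

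The p53 targets that act in cell death did not pass either, in 0 of 3 genes. Ei24 had 11.57, 11.48 and 11.60 with Gas siRNA, against 11.55, 11.52 and 11.53 with scrambled siRNA, which overlapped within a log2 change of 0.02 (95% interval -0.14 to 0.17, adjusted p = 0.965), and its second probe had -0.02. Phlda3, an inhibitor of Akt, had a log2 change of 0.21 and a second probe at 0.19 (adjusted p = 0.739 and 0.815). Aen, a nuclease, had a log2 change of 0.31 on a probe near background (adjusted p = 0.762), where Gas siRNA replicate 3 stood at 5.98 and the other 2 Gas siRNA arrays at 5.11 and 5.10.

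Many of the p53 targets were highest in replicate 3 of each group, a pattern looked for after the values had been seen and given as a description. The p53 targets counted were the measured genes of feedback, arrest and stress, of p53-induced cell death and of DNA repair, with Bbc3, Fas, Tnfrsf10b and Apaf1. This grouping was made by hand, so the other members are not shown to be free of p53 control. In 11 of the 17 measured p53 targets (64.7%), replicate 3 was the highest of the 3 arrays in the Gas siRNA group and also in the scrambled siRNA group. This held for 1 of the other 20 members (5%), Bid, and for 13% of all 11890 genes, while the corresponding shares of all genes were 11.4% for replicate 1 and 12.2% for replicate 2. Replicate 2 was the highest in both groups for 7 of those other 20 members (35%) and for 1 of the 17 p53 targets (5.88%), so a high point shared by number was not particular to the p53 targets. The 11 genes were Mdm2, Ccng1, Trp53inp1, Sesn1, Plk2, Zmat3, Phlda3, Ddb2, Bbc3, Apaf1 and Fas, of which Fas was near background. The count rests on the brightest probe of each gene. The next brightest kept probes of Mdm2, Ccng1, Phlda3 and Apaf1 had the pattern, while those of Trp53inp1, Sesn1, Ddb2 and Bbc3 did not. On those of Sesn1 and Ddb2 replicate 3 was the lowest with Gas siRNA, and on that of Trp53inp1 the lowest with scrambled siRNA.

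Ccng1 was higher in replicate 3 than in the mean of replicates 1 and 2 by 0.53 with Gas siRNA and by 0.37 with scrambled siRNA, and Mdm2 by 0.41 and 0.30. Phlda3 was higher by 0.34 with Gas siRNA and by 0.48 with scrambled siRNA, and Apaf1 by 0.40 and 0.25. In these genes the differences exceeded the log2 change between the siRNAs, which was -0.14, 0.12, 0.21 and 0.12. This did not hold for all the listed p53 targets. Ddb2 was higher in replicate 3 by 0.08 with Gas siRNA and by 0.11 with scrambled siRNA, against a log2 change of -0.17. In Plk2, Zmat3, Bbc3 and Fas the difference was the smaller in 1 of the groups. A single array set against the mean of 2 also varies more than a mean of 3 set against a mean of 3. Bcl2 lay the other way on its brightest probe, lower in replicate 3 by 0.71 with Gas siRNA and by 0.45 with scrambled siRNA. Its dimmer kept probes did not give 1 direction. Replicate 3 was the highest in both groups on ILMN_2706514 (6.27 with Gas siRNA and 6.19 with scrambled siRNA). It was the lowest in both on ILMN_1215796 (4.68 and 4.82).

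In 13 of the 17 p53 targets (76.5%) replicate 3 exceeded the mean of the other replicates in both groups, against 3 of the other 20 members (15%) and 28% of all genes. All 7 targets of feedback, arrest and stress were among them. Genes of the p53 network outside the set were less uniform, with replicate 3 highest in both groups for 11 of 37 (29.7%). These included Cdkn1a, which encodes the p21 inhibitor of cyclin-dependent kinases and had 11.28, 11.36 and 11.86 with Gas siRNA, against 11.54, 11.52 and 11.70 with scrambled siRNA. The labels do not say that a replicate number marks a shared culture, day or chip, so what arrays of 1 number share was not tested.

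**Figure D4:**
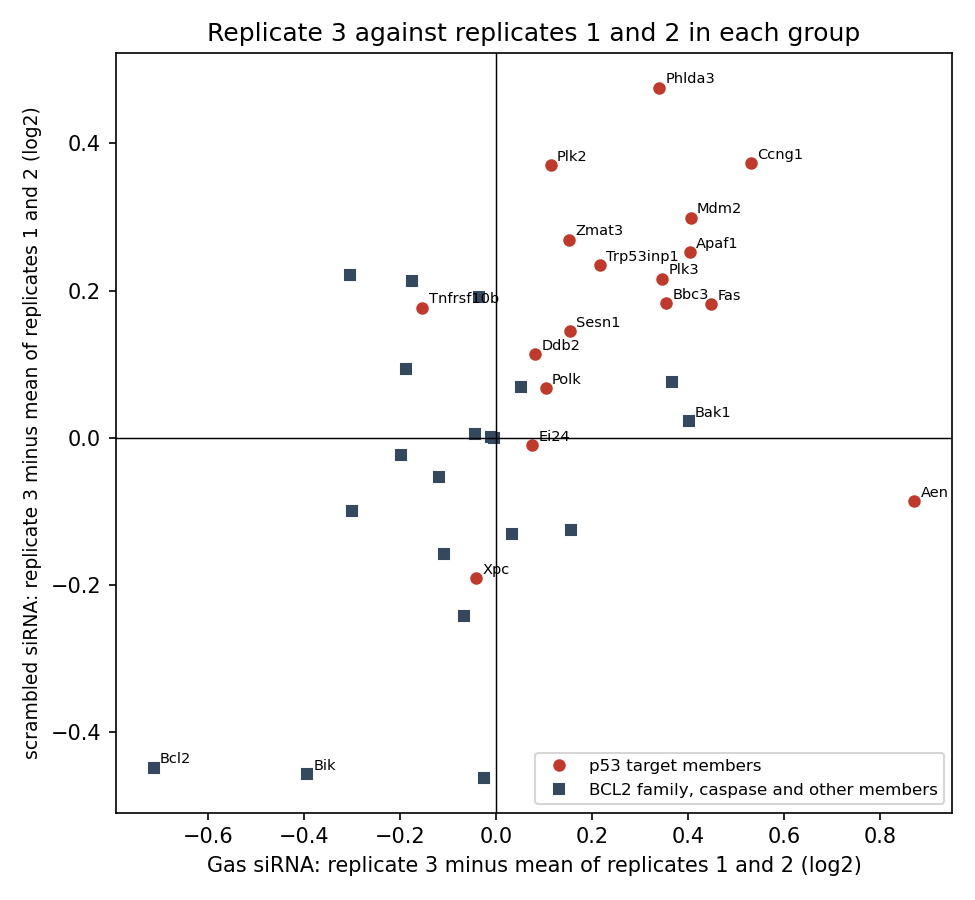
Replicate 3 minus the mean of replicates 1 and 2 in log2 intensity on the brightest kept probe of each gene. The Gas siRNA group is on the horizontal axis and the scrambled siRNA group on the vertical axis. Circles mark the 17 measured p53 targets and squares the other 20 members. The p53 targets lie mostly in the upper right, where replicate 3 is above the others in both groups, and Bcl2 and Bik lie in the lower left.

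Promoter sequences of the members were searched for the p53 binding motif and for the cyclic AMP response element, since the set consists of p53 targets in part and the siRNA acts on the pathway that makes cyclic AMP. RefSeq windows (GRCm38.p6) from 250 bases before to 50 bases after a gene start were at hand for 34 of the 42 members, as 48 windows, some of which overlap. The p53 decamer, the palindromic unit of which 2 make a full site, was matched exactly and reads the same on either strand. It occurred in 10 of the 48 windows (20.8%), of 9 genes (Aen, Bax, Birc2, Bmf, Ccng1, Ei24, Mdm2, Polk and Sesn1), and in 8.36% of all 32851 windows. A pair of such units with up to 13 bases between them occurred in 0 of the 48 and in 0.0731% of all windows.

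The cyclic AMP response element, searched as TGACGTCA, which is its own reverse complement, occurred in 3 of the 48 windows (6.25%), of Plk2, Cycs and Birc2, and in 1.79% of all windows. No match of 1 motif overlapped a match of the other. A match describes these letters and is not shown to be a binding site. The windows of Ccng1, Mdm2 and Sesn1 are shown because they hold a p53 decamer and the brightest probes of these genes were highest in replicate 3 in both groups. That of Plk2 is shown because it holds the response element and the groups of Plk2 did not overlap. Capitals mark the matches.
Ccng1 promoter (GRCm38.p6, chr11:40755237-40755536, minus strand): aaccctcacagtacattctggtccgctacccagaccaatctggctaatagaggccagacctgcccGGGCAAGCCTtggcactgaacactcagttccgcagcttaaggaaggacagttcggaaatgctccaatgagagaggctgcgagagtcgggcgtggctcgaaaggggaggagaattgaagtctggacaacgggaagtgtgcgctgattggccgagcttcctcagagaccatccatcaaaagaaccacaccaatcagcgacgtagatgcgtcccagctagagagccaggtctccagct
Mdm2 promoter (GRCm38.p6, chr10:117710709-117711008, minus strand): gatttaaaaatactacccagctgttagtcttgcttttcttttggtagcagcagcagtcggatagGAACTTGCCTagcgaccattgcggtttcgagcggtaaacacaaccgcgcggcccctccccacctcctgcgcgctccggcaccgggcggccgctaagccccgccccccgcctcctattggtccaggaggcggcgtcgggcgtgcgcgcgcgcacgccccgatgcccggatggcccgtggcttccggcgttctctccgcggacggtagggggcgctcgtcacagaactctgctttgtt
Sesn1 promoter (GRCm38.p6, chr10:41887189-41887488, plus strand): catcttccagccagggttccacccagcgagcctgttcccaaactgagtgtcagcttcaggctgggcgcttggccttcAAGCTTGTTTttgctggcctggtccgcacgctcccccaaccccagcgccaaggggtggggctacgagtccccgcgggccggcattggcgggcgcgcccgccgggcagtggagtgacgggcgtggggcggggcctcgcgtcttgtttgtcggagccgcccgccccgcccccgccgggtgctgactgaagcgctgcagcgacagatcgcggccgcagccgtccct
Plk2 promoter (GRCm38.p6, chr13:110394794-110395093, plus strand): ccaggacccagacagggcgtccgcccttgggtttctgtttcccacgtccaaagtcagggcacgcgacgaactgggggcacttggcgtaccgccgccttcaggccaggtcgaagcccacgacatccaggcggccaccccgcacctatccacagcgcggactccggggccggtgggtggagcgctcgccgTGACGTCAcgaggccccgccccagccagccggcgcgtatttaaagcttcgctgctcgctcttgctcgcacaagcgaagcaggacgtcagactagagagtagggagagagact

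In the Ccng1 window the decamer began 185 bases before the gene start, in the Mdm2 window 186 bases and in the Sesn1 window 173 bases before it. Windows of Aen, Birc2, Bmf, Ei24 and Polk also held a decamer, but their brightest probes were not highest in replicate 3 in both groups. The brightest probes of Plk2, Phlda3, Bbc3, Apaf1, Fas and Bid had that pattern, but their windows held no decamer. Whether the decamer and the pattern are linked was not tested. The response element of Plk2 began 62 bases before its start. Birc2 and Cycs, the other genes with that element, had log2 changes of -0.09 and -0.08, against 0.31 for Plk2, and none of the 3 passed.

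The rest of the p53 network and of the cell death machinery was read from lists outside the set. Of 37 measured p53 network genes, 1 rose, 0 fell and 36 did not pass (2.7%, against 1.63% of all genes), with a median log2 change of 0.04. The 1 was Gadd45a, a stress gene of growth arrest and repair, with 9.07, 9.10 and 9.43 with Gas siRNA, against 8.42, 8.69 and 8.87 with scrambled siRNA. Its groups did not overlap, it rose by 0.54 (SE 0.123, adjusted p = 0.0196), and its second probe rose by 0.51 (adjusted p = 0.0361). The call was lost without Gas siRNA replicate 3 (adjusted p = 0.172), scrambled siRNA replicate 1 (0.138) or scrambled siRNA replicate 2 (0.0505). With 1 array left out, the log2 change of the first probe ranged from 0.42 to 0.64.

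The next largest changes in that list did not pass. They were 0.29 for Triap1, an inhibitor of apoptosome formation, 0.28 for the stress gene Sesn2, 0.28 for Ccng2, cyclin G2, and -0.27 for Psrc1, with adjusted p of 0.203, 0.517, 0.771 and 0.793. Cdkn1a, the best known p53 target, had a log2 change of -0.09 (adjusted p = 0.862).

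Of 38 measured genes of the wider apoptosis machinery, 0 passed (0%, against 1.63% of all genes), and the median log2 change was 0.0017. At an unadjusted p under 0.05 in limma, 4 of the 38 passed, against 11.1% of all genes. The largest differences were -0.52 for Tnfsf10, which encodes TRAIL, -0.51 for Naip5, an inhibitor of apoptosis family member known from inflammasomes, 0.31 for the signalling adaptor Traf2 and -0.28 for the receptor Tnfrsf1a, with adjusted p of 0.309, 0.146, 0.486 and 0.729. Tnfsf10 had 5.37, 5.71 and 5.54 with Gas siRNA, against 6.05, 6.06 and 6.08 with scrambled siRNA. Its groups did not overlap, and it was dim in both.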

How the data were processed

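Total RNA of 6 LβT2 samples, 3 with Gas siRNA and 3 with scrambled siRNA, was labelled with biotin for Illumina arrays, per the labels' protocols. The deposited table holds linear intensity, with 1 value for each probe on each array. The tool in the submitters' processing notes is BeadStudio, and which normalization the authors ran is not given. Columns of the deposited intensity table had a median of 141 on every array and a lowest value of 97.6, so background had not been subtracted. A further table has 24 columns (signal, detection p, bead error and bead number before normalization) named by chip position, which match no sample's labels, and was not used here.

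Background mean (the mode, 127 on each array) and SD (8.29 to 8.37, from the values below the mode) were taken from each array, normexp was run with an offset of 16, and quantile normalization and log2 followed. Of 45281 probes, 22707 were kept. Symbols came from the platform annotation (34885 probes with 1 symbol, 18 with several, 10378 not listed). The comparison used limma 3.58.1 under R 4.3.3 (lmFit, eBayes with an intensity trend, 24.8 prior beside 4 residual degrees of freedom), two-sided, and p-values were adjusted over all kept probes by Benjamini-Hochberg. Adjusted p-values are from that fit unless an alternative is named beside them, which then was a limma fit with that 1 choice changed. The procedure was also run on simulated arrays with known changes and independent noise for each probe. These held no effect shared by arrays of 1 replicate number, so they cannot show how the procedure handles such an effect.

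The members and lists were chosen with earlier results of these data known. Every member was accounted for. Array values were given for members with a probe past the threshold, members whose groups did not overlap and the brightest of each role, beside Gnas as the target and, of other lists, the genes past the threshold and up to 4 more by size. Array values of Mdm2, Bcl2, Cdkn1a, Tnfsf10 and single probes of Bbc3 and Bcl2l2, and remarks on Pmaip1, Aen and Fas, were added after their values were seen. Alternatives were another background correction, offset, scaling, filter, variance model, array weights, averaged probes, the replicate block and each array left out.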

Additional observations from a re-analysis of the deposited data

How the results depend on the processing

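The count of 0 of 37 member genes and the count of 0 of the 38 further apoptosis genes were the same under all 16 alternatives run. The Gnas change stayed negative and past the threshold in them, -1.12 at the weakest with probes averaged (adjusted p from 9.95e-25 to 4.52e-04). The count over all genes was 194, against 5 without the intensity trend and 107 with probes averaged, and ranged from 105 to 145 when 1 array was left out. Without replicate 3 of both groups, which was tried only after seeing the data, it was 75. Of member probes 1 passed, against 0 without the intensity trend and 0 without replicate 3 of both groups, and between 0 and 0 with each array left out in turn. Of other p53 network genes 1 passed, against 0 without the intensity trend and 0 without replicate 3 of both groups, and between 0 and 1 with each array left out. The replicate block is no part of the design, and deviations of same-numbered arrays from their group means correlated at 0.016, 0.052 and 0.088, against -0.072 to 0.021 for different numbers. With that block 0 member genes and 1 member probe passed, 289 genes passed in all, and the Gadd45a adjusted p was 0.00127. Directions turned for values near 0: Ccng1 to 0.0074 and Ei24 to -0.00041 with probes averaged, Ei24 to -0.0095 and Bok to -0.11 without replicate 3 of both groups. With single arrays left out Bok ranged from -0.12 to 0.29, Diablo from -0.081 to 0.0029, Ei24 from -0.0063 to 0.055 and the brighter Trp53inp1 probe from -0.039 to 0.11. The cause was not tested. Signal over background limits the dim probes, whose intervals were the widest.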
